A study of Mus musculus with 18 samples.

Results

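The baseline expression of 6 mouse pancreatic ductal adenocarcinoma (PDAC) lines was compared by the organ from which each line had been derived, 2 lung lines against 4 liver lines. The libraries are the 8 of 18 RNA-seq libraries whose labels name an NT shRNA control, that is, cells that carried a control hairpin and no hairpin against Gstt1. Of these, 3 were from lung lines (42-3, sequenced in 2 libraries, and 6-2) and 5 were from liver lines (42-2, in 2 libraries, G45-2, 6-3 and 13-2). The remaining 10 libraries are labelled as the same 6 lines with a hairpin against Gstt1, a theta-class glutathione transferase.

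All lines came from spontaneous metastases of genetically engineered mice. The labels of the lung lines 42-3 and 6-2 and of the liver lines 42-2, G45-2 and 6-3 give floxed alleles of SIRT6, p48-Cre and 1 floxed p53 allele, among others. For the liver line 13-2 the labels give p48-Cre and p53 alleles without the SIRT6 allele. The p48 (Ptf1a) promoter drives Cre in pancreatic progenitors. All 8 cultures were infected with NT control lentivirus in the presence of polybrene, kept in puromycin for 48 h and harvested after 1 further passage in RPMI with 10% fetal bovine serum. The cells were therefore sampled in culture and not in the organ they had colonised. The sources used here do not say whether a line is a clone, whether lines whose names share a number (42-3 and 42-2, 6-2 and 6-3) came from the same mouse, or whether the paired libraries of a line were separate cultures, and p-values then measure only the spread between these lines.

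PDAC spreads mainly to the liver and also to the lung. Cells that grow out in either organ meet a different supply of nutrients, a different matrix and different resident immune cells, and established lines are used to ask which programmes a metastatic cell keeps once it is taken out of that organ. Programmes commonly compared between such lines are the cell cycle, lipid synthesis, the epithelial to mesenchymal transition (EMT), in which cells give up junctions and keratins, and the inflammatory genes under NF-kB control, which shape the recruitment of neutrophils and macrophages.

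Expression is given as CPM, the reads of a gene scaled to the reads of its library. Depth in the 8 libraries ranged from 12987323 to 20237530 reads, and 3 reads were worth 0.148 to 0.231 CPM. Leukocyte markers summed to at most 0.741 CPM and endothelial markers to at most 1.95 CPM in each library. The 10 ductal epithelial markers summed to 18880 to 25370 CPM in lung controls and 6984 to 26470 CPM in liver controls. Much of this was Spp1, at 5767 to 10120 CPM in lung and 6411 to 16360 CPM in liver controls. Krt19 was at 2581 to 3154 CPM in lung and 32.0 to 3539 CPM in liver controls, with 42-2 second lowest and 13-2 at 59.0 CPM. The sum is therefore no measure of how ductal a library was. The 5 of 8 macrophage markers in the table summed to 231 to 454.5 CPM in lung controls and 112 to 950.5 CPM in liver controls, mostly Cd14 (79.7 to 858 CPM) and Mrc1 (1.23 to 136 CPM), while the receptor Csf1r was at or under 0.884 CPM. Their part in the results on inflammatory genes was not tested. The hepatocyte markers Cps1 and Ttr were at or under 0.0681 and 4.63 CPM, while the apolipoprotein gene Apob was at 662 CPM in 42-2 first and 484 CPM in 6-3. The 8 fibroblast markers in the table summed to 14.1 to 58.5 CPM in lung controls and 6.13 to 2920 CPM in liver controls, with Lum at 0 in all libraries.

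The lung controls resembled each other more than the liver controls did. Across the 12931 genes tested, the Pearson correlation of log2(CPM + 1) was 0.932 to 0.955 in the 3 pairs of lung libraries, 0.835 to 0.902 in the 10 pairs of liver libraries and 0.825 to 0.906 in the 15 mixed pairs. These are correlations across genes, which are not independent replicates, and each library enters several pairs. On the first principal component, which held 34.9% of the variance, the lung libraries lay at -63.5 to -50.7 and the liver libraries at -18.7 to 69.9, with 6-3 nearest to the lung side.

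**Figure D1:**
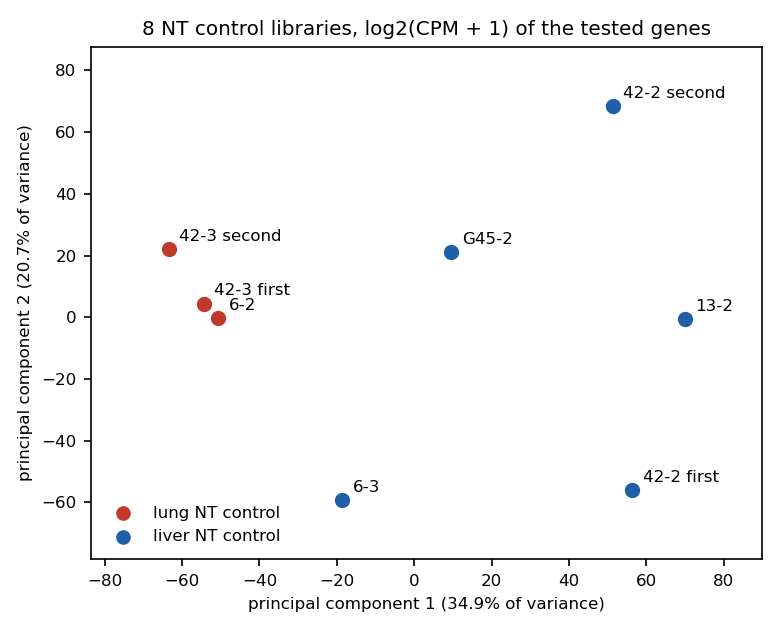
Principal components 1 and 2 of log2(CPM + 1), one point per NT control library, red for lung and blue for liver. The 3 lung libraries lie together between -63.5 and -50.7 on the first axis, while the liver libraries spread from -18.7 to 69.9 on it.

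The control libraries of line 42-2, called first and second by their library code (CFa8 and CFa13), stood apart from each other. Their correlation was 0.863, and 17 of the 28 pairs of libraries were more alike. Col3a1, a fibrillar collagen of mesenchymal cells, was at 23.4 CPM in the first and 2681 CPM in the second, the fibroblast receptor Pdgfrb at 15.4 and 180.9 CPM, and the epithelial cadherin Cdh1 at 580 and 9.70 CPM. Xist, which is expressed from an inactive X chromosome, was at 41.7 CPM in 42-2 second and at or under 0.201 CPM in the other 7 libraries. The Y-linked Ddx3y was at 98.3 to 222 CPM in the lung controls, and at 3.46, 3.00, 140, 48.9 and 0.0723 CPM in 42-2 first, 42-2 second, G45-2, 6-3 and 13-2. The libraries labelled 42-2 thus differed from each other in identity transcripts as well as from other lines. Whether both come from 1 line cannot be told from the labels, they were averaged as 1 line as labelled, and the part of these differences in the results was not tested. The libraries of 42-3 (codes CFa8 and CFa11) correlated at 0.932, and each was closer to 6-2 than to the other.

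With each line as 1 unit, 4 of 12931 genes (0.0309%) passed limma at an adjusted p of 0.05, and all 4 were higher in lung lines. Described here are 3 of them, Slc1a2, which encodes the glial-type glutamate transporter, Tnfrsf26, a member of the TNF receptor superfamily, and Sall1, a zinc-finger transcription factor of kidney and limb development. No gene passed in the direction of liver lines by limma or by edgeR. At an unadjusted p under 0.05 there were 1692 genes by limma (13.1%), and edgeR, run on the reads summed per line, called Tnfrsf26 alone (0.00773%), with 1757 genes at an unadjusted p under 0.05. DESeq2 on the same reads called 580 genes (4.49%), 202 higher (1.56%) and 378 lower (2.92%) in lung.

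Slc1a2 was at 47.9, 272 and 57.3 CPM in the lung libraries 42-3 first, 42-3 second and 6-2. In the liver libraries 42-2 first, 42-2 second, G45-2, 6-3 and 13-2 it was at 0.593, 0.539, 0.807, 2.59 and 0.362 CPM. The lowest lung library lay far above the highest liver library, 6-3, and the difference of line means on the log2(CPM + 1) scale was 5.41 (SE 0.53, limma adjusted p = 0.0418). On this scale changes of low genes are understated.

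Tnfrsf26 was at 43.9, 132 and 40.5 CPM in the lung libraries, in the same order. It was at 0.741, 0.616, 0.922, 0.818 and 0.362 CPM in the liver libraries, all under 1 CPM. The log2 difference was 5.07 (SE 0.41, limma adjusted p = 0.022). Tnfrsf26 has close paralogs, and the rule by which the authors assigned reads that fit several copies is unknown. Its level is therefore uncertain, as are those of Ftl1, Eno1 and H2-Q4.

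Sall1 was at 33.5, 5.05 and 27.4 CPM in the lung libraries. In the liver libraries it was at 0, 0.847, 0, 0 and 0.0723 CPM, so that 3 libraries held no read and 13-2 was under the level of 3 reads. The groups did not overlap, 42-3 second being the lowest lung and 42-2 second the highest liver library (difference 4.21, SE 0.41, limma adjusted p = 0.0418).

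None of the 4 calls remained when line 42-3, 6-2, 42-2 or 13-2, or the library 42-3 first or 42-2 first, was left out, the count then being 0 by limma. In these 6 settings the difference was 4.92 to 6.03 for Slc1a2, 4.62 to 5.52 for Tnfrsf26 and 3.58 to 4.69 for Sall1. The count was 8 without G45-2, 28 without 42-3 second, 7 without 42-2 second and 167 (94 higher and 73 lower in lung) without 6-3, the liver line nearest to the lung lines. A further 14 genes had a limma adjusted p between 0.05 and 0.06, of which 2 were higher and 12 lower in lung lines. With testing limited to genes that reached 5 CPM in 4 or more libraries, 14 genes passed, 2 higher and 12 lower in lung.

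**Figure D2:**
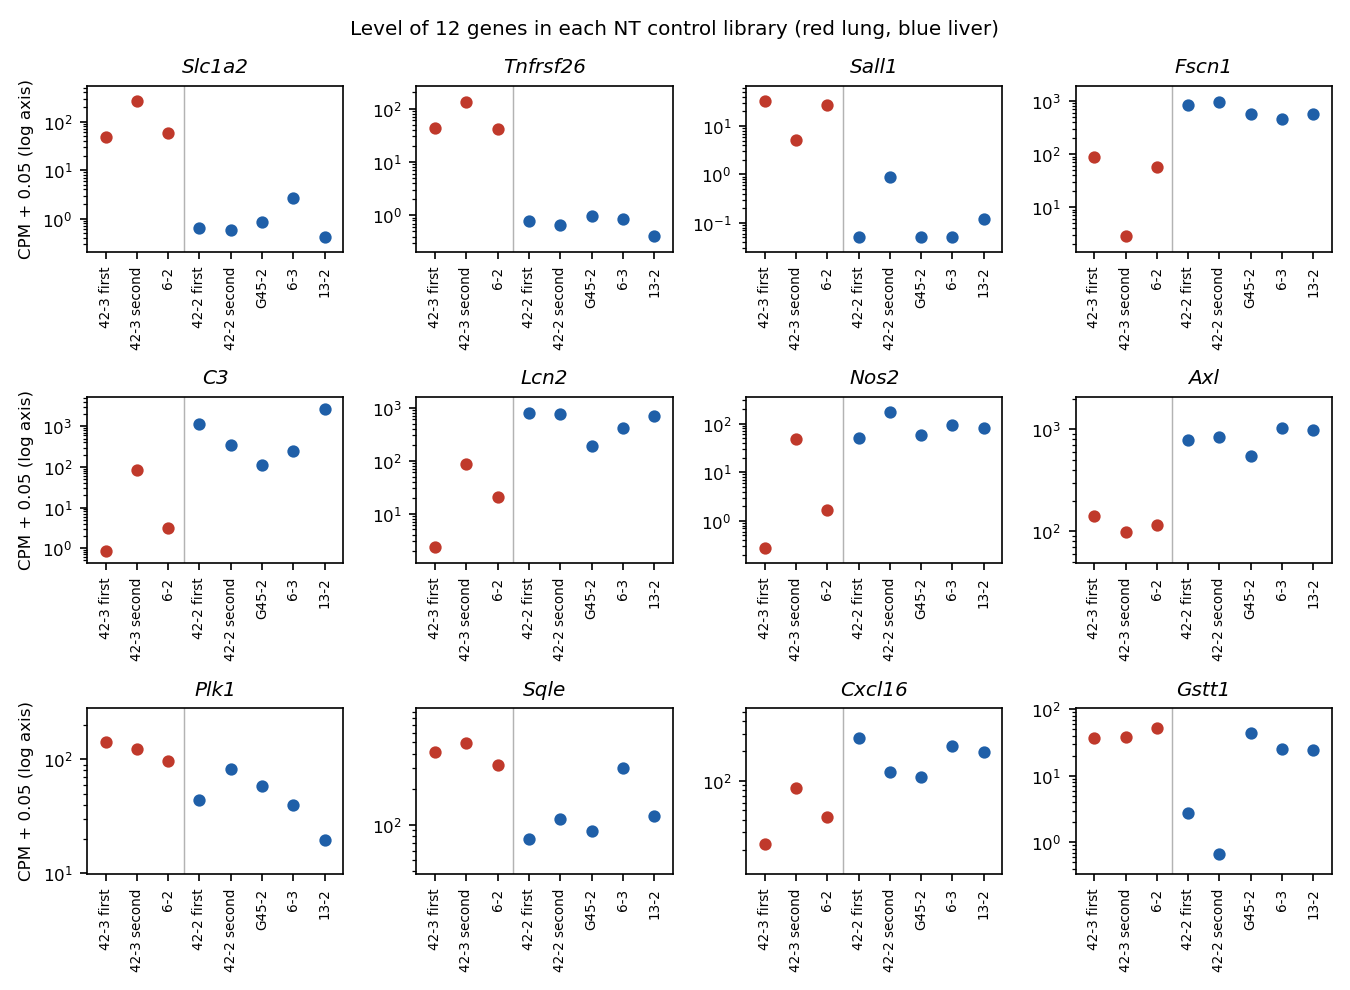
CPM plus 0.05 on a log axis for 12 genes in each NT control library, red for lung and blue for liver, the vertical line dividing the sites. Slc1a2, Tnfrsf26 and Sall1 are high in all 3 lung libraries, while C3, Lcn2, Nos2, Axl, Fscn1 and Cxcl16 lie lower in each lung library than in any liver library.

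A wider view comes from genes whose lung libraries all lay above or all below every liver library, with a difference of line means of at least 1 on the log2 scale. There were 708 such genes (5.48% of those tested), 340 higher in lung (2.63%) and 368 lower in lung (2.85%). This is a count without a test. It was 1687 without line 42-3, 1086 without 42-2 and 1204 without 6-3.

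The 15 genes of largest difference on each side without overlap are described next. DESeq2 called 10 of the 15 higher and 15 of the 15 lower in lung, against 1.56% higher and 2.92% lower over all genes. The 15 of each side were chosen by their values in the same libraries, so these counts are a description and give no further evidence. On the lung side, the homeobox gene Msx1 was at 27.98, 39.1 and 38.6 CPM in the lung libraries and at 0.692, 1.08, 3.69, 0.0681 and 0.0723 CPM in the liver libraries (difference 4.37, SE 0.65, limma adjusted p = 0.0815). The homeobox gene Irx3 was at 81.5, 140.1 and 152 CPM in lung and at 1.43, 14.6, 58.9, 6.88 and 0.0723 CPM in liver. Irx3 thus varied widely among liver lines, with G45-2 near the lung range, and its difference of 4.11 (SE 1.35) did not pass limma (adjusted p = 0.298).

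Myo7b, the myosin that anchors the tips of microvilli, was at 100.6, 34.8 and 81.2 CPM in lung libraries and at 18.3, 0.077, 10.9, 0.75 and 0.0723 CPM in liver libraries. Its partner in the intermicrovillar adhesion complex, the protocadherin Cdhr5, was at 103.5, 36.4 and 112 CPM in lung and at 21.5, 0.077, 24.1, 5.45 and 0.0723 CPM in liver. Both genes were lowest in the same liver libraries, 42-2 second and 13-2, and neither passed (limma adjusted p = 0.159 and 0.245).

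Cdh2, which encodes N-cadherin, a mesenchymal and neural adhesion molecule, was at 214, 230.3 and 152 CPM in lung libraries and at 11.7, 11.7, 0.979, 12.2 and 43.8 CPM in liver libraries (difference 4.06, SE 1.06, limma adjusted p = 0.232). Ildr2, an immunoglobulin-like domain receptor, was at 87.7, 10.7 and 86.5 CPM in lung and at 0, 10.2, 0, 0.0681 and 0.0723 CPM in liver. In Ildr2 the sites touched, 42-3 second at 10.7 CPM lying just above 42-2 second at 10.2 CPM, and its adjusted p was 0.0576 by limma. Sh3tc2, an endosomal recycling protein of Schwann cells, stood at 19.2, 62.0 and 27.2 CPM against 0.247, 6.08, 0.461, 0.0681 and 0.362 CPM, with a limma adjusted p of 0.0572.

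Igfbp3, a secreted carrier of insulin-like growth factors, was at 457, 229.8 and 620.2 CPM in lung libraries and at 104.5, 4.31, 175.8, 225.7 and 0.0723 CPM in liver libraries. Its groups were separated only narrowly, 6-3 at 225.7 CPM against 42-3 second at 229.8 CPM, and the difference of 3.82 (SE 2.00) did not pass limma (adjusted p = 0.455). The other genes of this set were Arap3, a GTPase-activating protein (4.45), Iffo1, an intermediate filament family member (4.08), Disp2 of the Dispatched family (3.94) and the xylosyltransferase Gxylt2 (3.87). Each of the 4 values is a log2 difference that did not pass limma.

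On the liver side, C3, the central complement component and the gene of largest difference, was at 0.81, 84.8 and 3.09 CPM in the lung libraries 42-3 first, 42-3 second and 6-2. It was at 1167, 355, 109, 249 and 2638 CPM in the liver libraries 42-2 first, 42-2 second, G45-2, 6-3 and 13-2 (difference -6.03, SE 1.16, limma adjusted p = 0.145). The second 42-3 library lay nearer to the liver range than the other lung libraries.

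Lcn2, an iron-siderophore binding protein of innate defence, was at 2.28, 86.1 and 20.9 CPM in lung and at 793, 760.5, 188, 413 and 684 CPM in liver (difference -4.55, SE 0.55, limma adjusted p = 0.0576). Nos2, the inducible nitric oxide synthase, was at 0.221, 47.8 and 1.61 CPM in lung and at 50.6, 176.5, 58.8, 93.9 and 80.2 CPM in liver (difference -4.18, SE 0.47, limma adjusted p = 0.0572). In both genes 42-3 second was again the highest lung library, and for Nos2 it came close to 42-2 first. The cytokine Il1a was at 0.516, 0.269 and 0.335 CPM in lung, and at 12.1, 22.2, 41.3, 107 and 13.4 CPM in liver. Osmr, the receptor subunit for the cytokine oncostatin M, was at 3.61, 14.6 and 2.28 CPM against 163, 117, 30.5, 65.4 and 178 CPM. Il1a was low in every lung library, 42-3 second included, and neither gene passed (limma adjusted p = 0.123 and 0.13).

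Fscn1, which encodes the actin-bundling protein fascin of filopodia, was at 89.3, 2.83 and 57.4 CPM in lung and at 844, 959.6, 576, 461 and 574 CPM in liver (difference -4.21, SE 0.47, limma adjusted p = 0.0572). Gata4, an endodermal transcription factor, was at 2.73, 0.0674 and 2.62 CPM in lung and at 174.9, 62.1, 29.7, 42.9 and 94.1 CPM in liver (difference -4.50, SE 0.59, limma adjusted p = 0.0615). Scarf2, a scavenger receptor family member, was at 0.957, 0 and 2.75 CPM in lung and at 58.9, 258, 63.5, 48.9 and 186 CPM in liver (difference -5.34, SE 0.63, limma adjusted p = 0.0576). In these 3 genes 42-3 second was the lowest library of all. The same held for the kinase Fyn, the phosphatase Ptp4a3 and Cyba, a subunit of the NADPH oxidase, with log2 differences of -3.83, -3.51 and -3.96. The matrix glycoprotein Efemp1 (-4.07), the water channel Aqp5 (-3.88) and the phospholipid flippase Atp11a (-3.69) completed the set together with Cxcl2, described next, and none of these passed limma.

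**Figure D3:**
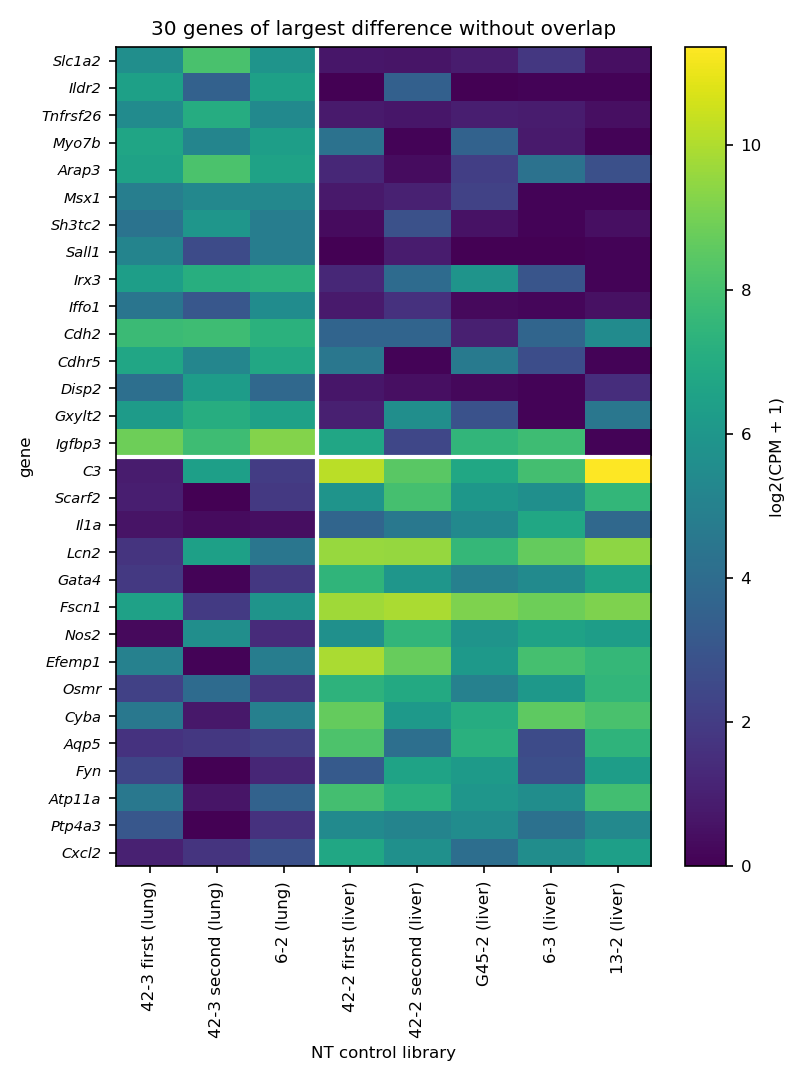
Heat map of log2(CPM + 1) for the 15 genes of largest difference in each direction without overlap, rows being genes and columns the NT control libraries. The lung libraries are bright in the upper rows and dark in the lower rows, with 42-3 second brighter than the other lung libraries for C3, Lcn2 and Nos2.

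Inflammatory groups were examined next as lists. Over all 12931 genes, 46.0% had a positive difference (higher in lung) and the median difference was -0.05. Without overlap, 2.63% of all genes lay higher and 2.85% lower in lung, the shares to set beside the list counts that follow. No member of any of the 33 lists passed limma over all genes. Of the 10 acute-phase and innate defence genes tested, 9 were lower in lung, the median was -2.23, and 3 (C3, Lcn2 and Nos2) had no overlap. The median was -3.77 among libraries of code CFa8 and -1.24 among those of CFa11.

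Of 21 genes for NF-kB subunits and feedback, 17 were lower in lung (median -0.52), and 2 had no overlap (2.85% of all genes lay lower). These were Nfkbiz, a nuclear co-regulator of NF-kB target genes, at 43.5, 170.1 and 106.5 CPM in lung and 505.5, 277, 187, 485 and 658 CPM in liver, and Sod2, the mitochondrial superoxide dismutase, at 61.4, 74.8 and 58.2 CPM against 221, 205, 114.5, 83.6 and 282 CPM. Their log2 differences were -2.001 (SE 0.47) and -1.29 (SE 0.48), and neither passed limma. The median of the list was -1.12 within code CFa8 and 0.07 within CFa11, where 42-3 second is the only lung library.

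Among 24 chemokines and myeloid growth factors, 14 were lower in lung, with a median of -0.55. Cxcl2, which attracts neutrophils, was at 1.03, 2.29 and 5.90 CPM in lung and at 107, 51.3, 16.3, 46.2 and 85.6 CPM in liver (difference -3.51, SE 0.72, limma adjusted p = 0.159). Cx3cl1, the membrane-tethered ligand of the monocyte receptor CX3CR1, was at 107, 153 and 140 CPM against 1245, 403, 279, 395 and 1153 CPM. Cxcl16, the ligand of CXCR6, was at 22.6, 83.5 and 43.2 CPM against 273, 122, 110, 223 and 194 CPM. All 3 were lower in each lung library than in any liver library. In the opposite direction Ccl9, a macrophage chemokine, was at 32.0, 42.0 and 51.0 CPM in lung and at 21.5, 19.8, 2.65, 27.7 and 2.24 CPM in liver. Its difference was 2.26 (SE 0.97), and none of the 4 passed limma. Without 42-3 second, 11 members lay lower in lung with no overlap in place of 3, while the count over all genes went from 368 to 505 (3.91%). Within CFa11 the median was 0.70, a change of direction.

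The interferon-stimulated genes were highest in the second 42-3 library. Of 30 tested, 20 were higher in lung and the median was 0.61, but 26 had their highest value of all 8 libraries in 42-3 second, and the median was -0.22 without it. The antiviral nucleotide kinase Cmpk2 was at 1.03, 20.9 and 1.54 CPM in lung and at 0.198, 1.00, 0.346, 0.204 and 0.868 CPM in liver. The RNA-degradation pathway synthetase Oas3 was at 2.87, 13.5 and 2.28 CPM against 0.395, 1.69, 1.33, 1.16 and 0 CPM. Both were without overlap and low, and neither passed limma (differences 1.49, SE 0.46, and 1.49, SE 0.51). Of 17 genes of class I antigen presentation, 11 were lower in lung (median -0.25), none without overlap. B2m, the invariant light chain, was at 183, 469 and 220 CPM in lung and 354, 453, 542, 485 and 579 CPM in liver, while the class I gene H2-Q4 was at 2.73, 31.7 and 3.82 CPM against 0.544, 4.77, 0.922, 0.886 and 1.08 CPM. For both genes 42-3 second was the highest lung library. The list's median was -0.81 without it.

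Proliferation genes were examined as 2 lists. All 33 mitotic genes tested had a positive difference, with a median of 1.18, and 9 lay higher in lung without overlap, against 2.63% of all genes. Of the 40 DNA replication genes 37 were positive, with a median of 0.76 and 3 without overlap. By library, the replication median of 42-2 second (0.78 relative to the mean of the lines) was above those of 42-3 second and 6-2 (both 0.45). None passed limma over all genes, and 21 mitotic and 11 replication genes had an unadjusted limma p under 0.05. The median of the mitotic list was 1.26 within CFa8, 1.52 within CFa11, 0.84 for 42-3 minus 42-2 and 1.14 for 6-2 minus 6-3.

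The promoters of the 4 mitotic genes with the largest differences without overlap are shown because these genes were higher together and each holds the letters TTTGAA, the core of the cell cycle homology region through which the DREAM complex is known to repress late cell cycle genes. Capitals mark the letters or their reverse complement, both strands having been searched. They occur in 17.89% of the 32851 promoters of the RefSeq table (each 250 bases before to 50 after a start, build GRCm38.p6, whereas the deposited table was made on mm9), in 22 of the 29 mitotic genes with an entry (75.86%), in 8 of 8 of those without overlap and in 14 of 21 of those with overlap. A match describes the letters and is not a mapped site. The list consists of mitotic genes, and its split by overlap uses the same libraries, so these shares are a description. Whether the letters have a part in the site difference was not tested. The windows are chr7:122159185-122159484 (plus strand) for Plk1, chr1:189688037-189688336 (minus) for Cenpf, chr2:172370521-172370820 (minus) for Aurka and chr19:34922108-34922407 (plus) for Kif20b.
Plk1: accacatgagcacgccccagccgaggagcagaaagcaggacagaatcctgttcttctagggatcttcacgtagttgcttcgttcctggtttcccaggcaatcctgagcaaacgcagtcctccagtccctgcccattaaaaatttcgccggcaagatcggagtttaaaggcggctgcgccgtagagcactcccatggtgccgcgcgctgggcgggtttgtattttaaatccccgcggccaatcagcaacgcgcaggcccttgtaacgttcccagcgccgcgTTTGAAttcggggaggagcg
Cenpf: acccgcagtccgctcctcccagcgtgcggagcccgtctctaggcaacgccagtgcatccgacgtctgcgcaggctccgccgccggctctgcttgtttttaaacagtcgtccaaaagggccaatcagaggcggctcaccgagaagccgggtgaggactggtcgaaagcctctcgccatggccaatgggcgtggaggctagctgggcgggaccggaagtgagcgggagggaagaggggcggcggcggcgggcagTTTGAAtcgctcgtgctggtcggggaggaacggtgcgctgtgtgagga
Aurka: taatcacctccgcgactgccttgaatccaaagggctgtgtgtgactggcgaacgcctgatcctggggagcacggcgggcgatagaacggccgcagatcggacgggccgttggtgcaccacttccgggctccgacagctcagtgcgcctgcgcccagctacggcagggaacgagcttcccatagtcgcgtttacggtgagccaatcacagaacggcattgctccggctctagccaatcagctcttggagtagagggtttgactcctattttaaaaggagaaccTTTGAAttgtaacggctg
Kif20b: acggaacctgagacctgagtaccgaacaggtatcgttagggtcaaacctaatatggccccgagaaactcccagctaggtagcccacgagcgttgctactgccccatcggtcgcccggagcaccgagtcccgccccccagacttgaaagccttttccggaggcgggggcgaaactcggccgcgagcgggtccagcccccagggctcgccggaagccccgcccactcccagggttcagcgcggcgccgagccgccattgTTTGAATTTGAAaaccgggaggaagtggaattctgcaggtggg

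Plk1, the kinase that drives mitotic entry and spindle assembly, was at 141.5, 125 and 97.6 CPM in lung and at 43.6, 82.5, 57.9, 39.9 and 19.7 CPM in liver (difference 1.46, SE 0.46, limma adjusted p = 0.283). Cenpf, a kinetochore protein, was at 146, 128 and 117 CPM in lung and at 26.2, 91.7, 81.4, 29.2 and 19.7 CPM in liver (difference 1.67, SE 0.52, limma adjusted p = 0.283). The centrosomal kinase gene Aurka was at 104, 141.5 and 97.5 CPM against 47.6, 87.5, 62.9, 25.8 and 19.1 CPM. In all 3 genes the highest liver library was 42-2 second and the lowest 13-2. The kinesin Kif20b followed the same order, at 100.3, 82.8 and 82.1 CPM against 37.0, 73.8, 44.8, 21.4 and 18.1 CPM.

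The 42-2 second library was the highest liver library in 30 of the 33 mitotic genes. Without it 25 mitotic genes and 12 replication genes lay higher in lung with no overlap, against 509 of all genes (3.94%), and the medians were 1.33 and 0.89. Among replication genes without overlap were Gins1, a subunit of the replicative helicase, at 24.9, 28.4 and 22.7 CPM in lung and 5.78, 18.5, 11.3, 6.68 and 4.05 CPM in liver, Cdc45, its cofactor, with a log2 difference of 1.31 (SE 0.46), and Pole, the leading-strand polymerase, with 1.04 (SE 0.41). Mki67, a general marker of cycling cells that was added after its values were seen, overlapped, at 98.8, 119 and 67.7 CPM in lung and 43.1, 101.0, 100.6, 53.3 and 29.7 CPM in liver. Of 8 genes for cyclin-dependent kinase inhibitors 5 were positive (median 0.21). Only Cdkn3, a phosphatase gene whose own transcript peaks in mitosis, had no overlap, at 31.9, 19.3 and 41.7 CPM in lung and 8.80, 18.8, 10.9, 10.5 and 5.28 CPM in liver.

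**Figure D4:**
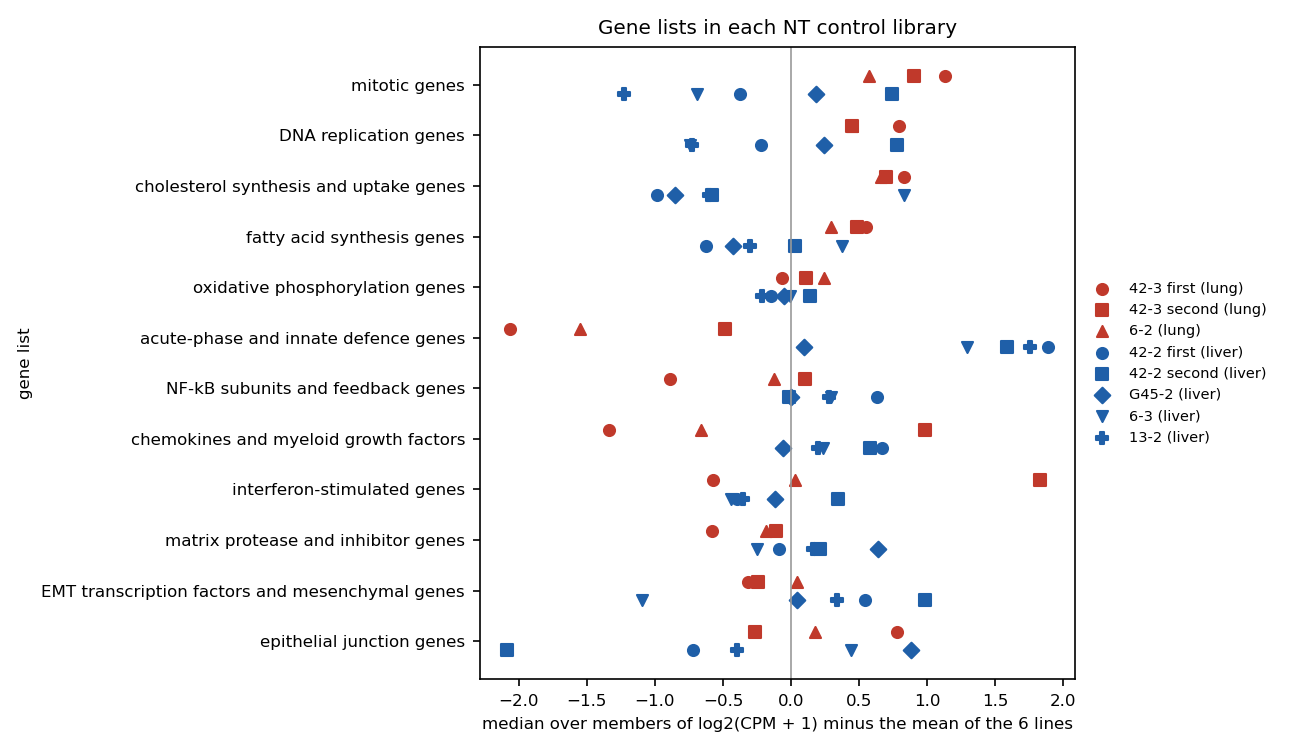
Median over the members of 12 gene lists of log2(CPM + 1) minus the mean of the 6 lines, one symbol per NT control library, red for lung and blue for liver. Mitotic genes lie between 0.58 and 1.13 in lung and reach 0.74 in 42-2 second, the cholesterol genes of 6-3 lie among the lung libraries at 0.83, and the interferon-stimulated genes stand at 1.83 in 42-3 second.

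Genes of the sterol pathway were mostly higher in lung lines. Of 22 genes of cholesterol synthesis and uptake, 21 had a positive difference, with a median of 1.09. Sqle, the squalene epoxidase at a rate-limiting step, was at 417, 490.2 and 321 CPM in lung and at 75.9, 111, 88.4, 300.4 and 118 CPM in liver (difference 1.54, SE 0.50, limma adjusted p = 0.297). The only member without overlap, it was nevertheless nearly as high in 6-3 as in 6-2. The liver line 6-3 was the highest liver library in 20 of the 22 genes. The median was 1.69 for 42-3 minus 42-2 and -0.26 for 6-2 minus 6-3.

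Fatty acid synthesis genes had the same pattern, 12 of 14 being positive with a median of 0.58. The carboxylase Acaca, which makes malonyl-CoA, was at 21.1, 20.8 and 19.9 CPM in lung and at 7.56, 13.9, 13.5, 11.6 and 8.97 CPM in liver (difference 0.84, SE 0.33, limma adjusted p = 0.351). The desaturase Scd1 was at 190.5, 148 and 169 CPM against 171, 23.6, 23.3, 163 and 35.4 CPM. For Scd1 the liver libraries fell into a high pair, 42-2 first and 6-3, and a low trio.

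Oxidative phosphorylation genes differed little in size, 41 of 52 being positive with a median of 0.26, and 1 was without overlap (2.63% of all genes lay higher). This was the complex I subunit Ndufa6, at 147.5, 162.5 and 219 CPM in lung and 100.1, 69.1, 76.8, 108.5 and 101.5 CPM in liver. Glycolysis and hypoxia genes divided, 10 of 28 being positive (median -0.10). The glycolytic enzyme gene Eno1 was higher in lung without overlap, at 476, 634.5 and 419.5 CPM against 75.9, 287, 280.1, 249 and 145.5 CPM. Lower in lung without overlap were its neuronal isoform Eno2, the mitophagy receptor Bnip3, the vasodilator peptide Adm and the angiogenic factor Vegfa (2.85% of all genes lay lower). Bnip3 was at 8.69, 7.14 and 10.6 CPM in lung and at 88.3, 35.6, 46.1, 129.9 and 27.1 CPM in liver (difference -2.47, SE 0.57, limma adjusted p = 0.201). Vegfa was at 165, 164 and 187 CPM against 560.4, 263, 509, 570.3 and 306 CPM (difference -1.29, SE 0.30, limma adjusted p = 0.201). Every liver library held more of both transcripts than any lung library.

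Genes of the antioxidant factor NRF2 were mixed, 12 of 20 being lower in lung (median -0.16). Lower in lung without overlap were 3 genes that handle haem, iron and NADPH, against 2.85% of all genes. Hmox1, the haem oxygenase, was at 37.0, 37.8 and 33.2 CPM in lung and 303, 169, 200.5, 69.1 and 729 CPM in liver. The ferritin light chain gene Ftl1 was at 106, 423 and 155 CPM against 511, 435, 428, 541 and 513.5 CPM, and the NADPH-producing G6pdx had a log2 difference of -1.02 (SE 0.31). In G6pdx the sites nearly touched, 42-3 second being at 174.7 CPM and 6-3 at 175.5 CPM. None of the 3 genes passed limma (adjusted p = 0.272, 0.114 and 0.277). Of 28 other glutathione genes 13 were positive (median -0.10), with the microsomal transferase Mgst1 lower in lung (-2.02, SE 0.50) and the cyclotransferase Ggct higher (1.21, SE 0.48) without overlap. Neither of these passed limma.

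Epithelial and mesenchymal genes did not sort the lines into an epithelial and a mesenchymal site. Of 36 epithelial junction genes 19 were positive (median 0.21, and -0.14 without 42-2 second), and of 23 EMT genes 9 were positive (median -0.34). The simple-epithelial keratin Krt8 was higher in lung without overlap, at 3711, 3673 and 4113 CPM against 273, 88.2, 1393, 2662 and 346 CPM. Also higher in lung without overlap were mesenchymal genes, Cdh2 as given above and S100a4, a calcium-binding protein of motile cells, at 917.5, 673.5 and 1325 CPM against 187, 437, 394, 327 and 185 CPM (difference 1.82, SE 0.37, limma adjusted p = 0.155). The fibroblast marker sum was highest in 42-2 second, at 2920 CPM, and its part in these lists was not tested. The intermediate filament gene Vim, which lay outside the naming rule and was also without overlap, was at 2239, 1899 and 2822 CPM against 838, 1462, 1264, 1722 and 574 CPM.

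In the opposite direction, the receptor tyrosine kinase gene Axl had the most even separation of this group. It was at 141, 97.7 and 114 CPM in lung and at 794, 850, 544, 1041 and 989 CPM in liver. The liver libraries were within 1.91-fold of each other, the difference was -2.82 (SE 0.31), and the limma adjusted p of 0.0572 missed the threshold. Axl passed in 7 of 23 alternatives, with adjusted p from 1.24e-10 (DESeq2) to 0.471. Tgfbr2, the ligand-binding TGF-beta receptor, was at 98.1, 86.0 and 59.8 CPM against 260, 232, 144, 226 and 317 CPM (difference -1.59, SE 0.35, limma adjusted p = 0.181). Axl is also a target of the YAP and TEAD factors, of whose 21 tested targets and partners 13 were lower in lung (median -0.48), Tead3 having a difference of -1.05 (SE 0.43).

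Matrix proteases and their inhibitors were lower in lung in 18 of 24 cases (median -0.39), 3 of them without overlap, against 2.85% of all genes. The stromelysin Mmp3 was at 0.442, 1.62 and 0.537 CPM in lung and at 3.61, 36.5, 51.6, 3.61 and 32.7 CPM in liver. Mmp19 was at 2.28, 2.96 and 2.88 CPM against 9.14, 16.7, 21.7, 7.43 and 31.0 CPM, and the aggrecanase-family gene Adamts1 had a difference of -1.72 (SE 0.86). Collagen and laminin genes were evenly divided, 12 of 24 in each direction. Without overlap, the basement membrane collagen Col18a1 was higher (1.38, SE 0.90) and the fibrillar collagen Col5a1 lower (-1.30, SE 0.49) in lung. In Col5a1 the sites nearly touched, 6-2 being at 79.7 CPM and 6-3 at 79.9 CPM. Of 15 integrin genes 10 were positive, and Itgb8, the subunit of a TGF-beta activating integrin, was lower in lung (-1.65, SE 0.99). Itgb8 was low and its sites nearly touched, 6-2 being at 0.335 CPM and G45-2 at 0.346 CPM. None of these genes passed limma.

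Signalling and lineage lists held few genes without overlap, 1 higher and 1 lower of 35 TGF-beta and BMP genes, 1 and 1 of 34 WNT genes, and 1 higher each of 10 Hox and 23 ERK output genes. Over all genes the shares were 2.63% higher and 2.85% lower, and nothing is read from counts of 1. In the TGF-beta and BMP list, 13 of 35 genes were positive (median -0.21). The ligand Bmp2 was at 90.7, 27.1 and 128 CPM in lung and at 20.7, 8.08, 21.7, 4.57 and 0.217 CPM in liver (difference 3.57, SE 1.11). In the WNT list 17 of 34 were positive (median 0.03). The ligand Wnt7b was at 322, 844.5 and 346 CPM in lung and 15.9, 6.16, 302.5, 130.2 and 90.8 CPM in liver, while the receptor Fzd3 was at or under 0.221 CPM in lung and at 0.818 to 24.7 CPM in liver. Of 10 tested Hox genes 9 had a negative difference (median -0.49). The exception was Hoxb6, at 11.1, 3.44 and 29.5 CPM against 0.198, 0.847, 2.94, 0.0681 and 0 CPM. By library, the Hox median relative to the mean of the lines was 1.075 in 42-2 second and 0.417 in G45-2. In the other libraries of both sites it was -0.439 to -0.293, and the median difference within CFa8 was 0.014. The ephrin receptor Epha4, from the ERK output list, was at 44.9, 67.5 and 50.5 CPM in lung against 0.692, 8.47, 8.99, 32.0 and 7.16 CPM in liver. For each of these 5 genes the sites did not overlap, and none passed limma (adjusted p = 0.28, 0.421, 0.283, 0.201 and 0.283).

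Of the remaining lists, p53 targets had 11 of 24 positive (median -0.03), with Phlda3, an AKT inhibitor, higher in lung (1.27, SE 0.51) without overlap. Stress response genes had 19 of 30 positive (median 0.15), with the transcription factor Cebpb lower in lung (-1.37, SE 0.45). Classical PDAC genes had 13 of 20 positive (median 0.29, and -0.21 without 42-2 second), Gata4 being the member without overlap. Basal-like and squamous genes had 11 of 17 positive (median 0.60, and -0.15 within CFa11). The members without overlap, Il1a and Trp63, the squamous master regulator (-1.29, SE 0.56), were lower in lung. Trp63 was at 0, 0 and 0.0671 CPM in lung and at 5.53, 2.46, 1.90, 0.136 and 1.59 CPM in liver. Its values in 6-2 and 6-3 rest on fewer than 3 reads, and so does its lack of overlap. When 42-3 second was left out 4 others lay higher with no overlap, while the count over all genes went from 340 to 549 (4.25%). Zinc transporters and metallothioneins had 5 of 20 positive (median -0.18), PDAC driver genes 8 of 20 (median -0.08), ERK output genes 10 of 23 (median -0.10), and the Sirt6 and Lin28b oncofetal genes 6 of 10 (median 0.19). No member of these lists passed limma.

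The study's target, Gstt1, was at 37.6, 38.8 and 52.5 CPM in the lung libraries and at 2.67, 0.616, 43.8, 25.4 and 24.3 CPM in the liver libraries. The order of lines was 6-2, G45-2, 42-3, 6-3, 13-2 and 42-2, so that G45-2 lay within the lung range and 42-2 alone was low. Lines with 1 library have no spread of their own, and the neighbours from 6-2 to 13-2 in this order were not tested against each other. The line means of log2(CPM + 1) were 5.52 ± 0.32 in lung (SD, n = 2 lines) and 4.04 ± 1.88 in liver (SD, n = 4 lines). The difference of 1.48 had an exact two-sided permutation p of 0.267, taken as 2 times the smaller tail over 15 splits of the lines, which cannot go under 0.133. It was 0.56 without 42-2, 3.63 within library code CFa8 and 0.36 within CFa11. The paralog Gstt3 was at 19.5, 25.6 and 27.8 CPM in lung and 2.82, 2.31, 43.9, 7.43 and 22.7 CPM in liver, and how reads shared by the paralogs were assigned is not known, so that their separate levels are uncertain.

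The genes whose line means followed Gstt1 most closely over the 6 lines were Evpl, a cell-envelope protein of squamous epithelia (Pearson r 0.987), the dehydratase Pcbd1 (0.984), the small GTPase Arl4c (0.981) and the phosphatidylcholine transfer protein Pctp (0.981). These are the highest correlations among the tested genes with a mean of at least 5 CPM over the NT controls. They rest on 6 points and are a description. All 4 had their lowest line mean in 42-2, Arl4c being at 29.6 and 80.6 CPM in the libraries of that line and at 117 to 169 CPM in the others. For Pcbd1 this rested on 42-2 second, at 1.08 CPM, 42-2 first being at 54.3 CPM and 13-2 at 54.7 CPM.

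The site difference was then looked up in the 10 libraries that carried a Gstt1 hairpin, which the comparison above did not use. No gene passed limma between lung and liver there (0 of 12931, with 285 at an unadjusted p under 0.05, 2.2%); edgeR and DESeq2 were not run on them. Of the 340 genes higher in lung controls without overlap, 76 (22.35%) kept a positive difference, the median going from 1.62 to -0.32. Of the 368 lower genes, 98 (26.63%) kept a negative one, the median going from -1.50 to 0.30. Over all genes tested 36.05% had the same sign in both sets. Gstt1 itself was at 0.238 to 0.358 CPM in the lung libraries with a hairpin and at 0.0687 to 23.9 CPM in the liver ones. It was highest in G45-2 shRNA 1 (23.9 CPM) and 6-3 shRNA 1 (19.15 CPM), so its level was not uniform. The part of this in the site difference was not tested.

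The larger shifts between control and knockdown libraries were in the lung lines. The median of knockdown minus control over the 340 genes was -1.42 in 42-3 and -1.75 in 6-2, and 0.10 to 0.58 in the 4 liver lines. Over the 368 genes it was 1.25 and 1.19 in the lung lines and -0.79 to -0.37 in the liver lines. The control libraries that chose the genes enter these differences, which are therefore a description.

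Single genes show the size of this shift. Slc1a2 was at 0.0783 to 0.205 CPM in the 3 lung libraries with a hairpin and at 0.416 to 0.931 CPM in the 7 liver ones, and Sall1 at 0 in the lung ones and at 22.0 and 14.6 CPM in the 2 G45-2 ones. Axl was at 1132 to 1359 CPM in lung and 768 to 1556 CPM in liver libraries with a hairpin, so that the sites overlapped. C3 was at 219, 183 and 25.6 CPM in 6-2 shRNA 1, 42-3 shRNA 2 and 42-3 shRNA 1, and at 0 to 59.2 CPM in the liver ones. Identity transcripts moved with these values. Ddx3y was at 1.08, 0.119 and 0 CPM in the same 3 lung libraries, against 98.3 to 222 CPM in the lung controls, and Xist was at 197 CPM in 42-3 shRNA 1. The part of the hairpins and that of the identity of the cells in this result cannot be told apart.

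**Figure D5:**
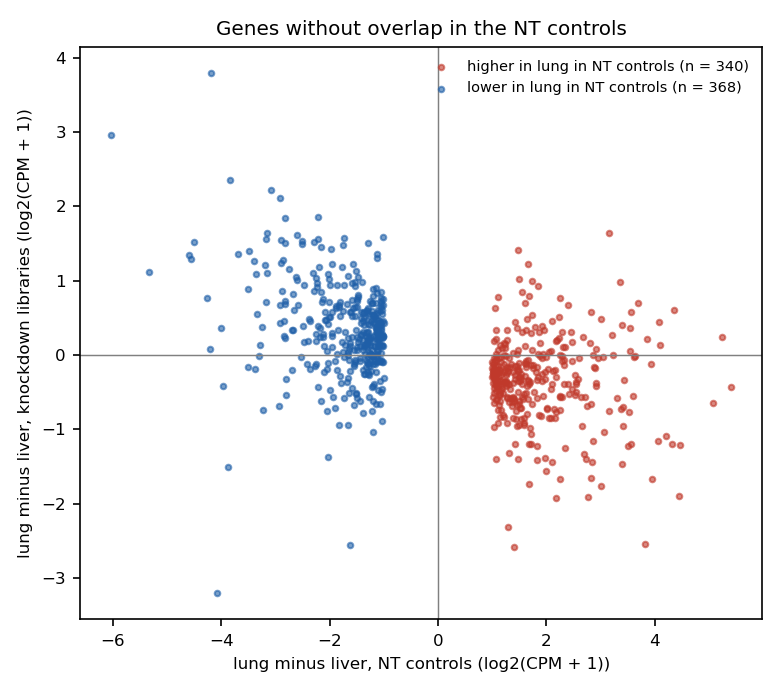
Lung minus liver difference of line means of log2(CPM + 1) in NT controls (horizontal axis) and in knockdown libraries (vertical axis) for the 708 genes without overlap in the controls, red for the 340 higher and blue for the 368 lower in lung. Most red points lie below 0 and most blue points above 0 on the vertical axis, 22.35% and 26.63% keeping their sign.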

How the data were processed

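RNA-seq was analysed for the 8 NT control libraries, with the 10 knockdown libraries labelled with the same lines used for 1 further look. The authors deposited 1 table of CPM for 16383 genes, made on mm9 per the submitters' processing notes. The sources used here name no aligner, counter, strand setting or annotation. All values were whole multiples of 1 read within 0.01 reads (100%), which gave the library totals, and no 2 control libraries agreed within sampling noise (smallest chi-square per degree of freedom 97.8). The listed genes held 98.995% to 99.59% of each library.

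The libraries of a line were averaged as log2(CPM + 1), and genes that reached 1 CPM in 4 or more of the 18 libraries entered a two-sided limma 3.58.1 test with trend in R 4.3.3 (adjusted p of 0.05 after Benjamini and Hochberg). edgeR 4.0.16 (quasi-likelihood) and DESeq2 1.42.0 were run on the recovered read counts summed per line. The fit was first run on simulated counts with planted site changes. These had the same dispersion for every gene and no differences between lines of a site, so the run does not cover the real spread between lines. Python 3.11.15 was used for the other steps. The deposited CPM were rescaled (median ratio, quantile), and the pseudocount, filter, variance estimation, line correlation, library code, line-number block, lines and libraries were varied.

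The members, the 33 gene lists and 11 marker lists were chosen with earlier results of these data known. Named are Gstt1, the 15 genes of largest difference in each direction without overlap and with at least 5 CPM in every library of the higher group, genes past the threshold, and of each list up to 4 members without overlap, otherwise the 2 of smallest p. Eno1, Mki67, Vim, Csf1r, Gstt2 and the identity transcripts were added after their values were seen. Some genes the rule names are not reported here.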

Additional observations from a re-analysis of the deposited data

Results flagged for a closer look

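Among the 5 liver controls, 5 of 87 genes examined had 1 library far from the other 4 (a gap of more than 0.71 of the whole range). Chance alone marks about 1 in 20 such groups, a share near the one found, and nothing is read from the count. The library 42-2 second was the high one in 4 of the 5 genes, with Sall1 at 0.847 CPM, Ildr2 at 10.2 CPM, Sh3tc2 at 6.08 CPM and H2-Q4 at 4.77 CPM. The first 3 are genes of the lung side, and the other liver libraries held at most 0.0723, 0.0723 and 0.461 CPM of them. Phlda3, an AKT inhibitor induced by p53, was low in 13-2, at 30.2 CPM against 90.2 to 107 CPM in the other liver libraries.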

How the results depend on the processing

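The count of 4 genes past limma's threshold was 2 with a pseudocount of 0.5, 14 with a minimum of 5 CPM, 76 with libraries and an estimated correlation within line (-0.19), 46 with the library code as a term, 1 by edgeR and 580 by DESeq2. Leaving out lines or libraries gave 0 to 167. Tnfrsf26 was called by edgeR and DESeq2, and Sall1 and Slc1a2 by DESeq2. The count without overlap, 708, was 1573 with no minimum difference and 225 with a minimum of 2, and 685 to 1687 on leaving out lines or libraries. The Gstt1 difference of 1.48 was 3.63 within code CFa8, and 0.56 to 1.96 on leaving out lines or libraries. With a replicate block by the number that line names share (42 and 6), 1 gene passed (C3, lower in lung), and the Gstt1 difference was 4.01 for 42-3 minus 42-2 and 1.02 for 6-2 minus 6-3. The labels do not say that the numbers mark a shared mouse. Gstt2, at -0.48, was 0.49 in that fit, 0.22 without G45-2 and 0.04 without 42-3 second (-1.01 to 0.22 on leaving out lines or libraries), the only 1 of 86 other named genes to change sign. Of 1968 values of these genes, 1799 kept direction and side of the threshold, 46 lost a call and 120 gained one. The list counts without 42-2 second or 42-3 second, within codes and within line numbers, and the minimum differences in the knockdown libraries (29.94% and 25.33% of the same sign, against 24.58%), were chosen after seeing the data. Without either lung line no call was left, and levels under 0.148 to 0.231 CPM rest on fewer than 3 reads; the cause of the differences between settings was not tested.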

Other observations

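Some genes were missing from a single library while each of the other 7 held at least 5 CPM. In 42-3 second 11 genes were at 3 reads or fewer, 7 of them at 0, among them the carbonyl reductase Cbr1, the acyltransferase Mboat2, the matrix gene Efemp1 and the ciliary Hedgehog regulators Evc and Evc2, which are neighbours in the genome. In 42-2 second 7 genes were missing, among them the mineralocorticoid receptor Nr3c2 and the motor Myo5b. In 13-2 they were 3, including the securin gene Pttg1, at 0.0723 CPM there and at 26.9 to 168 CPM in the other libraries. G45-2 and 6-3 lacked 2 each, and 42-3 first, 6-2 and 42-2 first lacked 0. These genes were found by their values and no test was made.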
